A study of Mus musculus with 16 samples.

Results

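The regions described here were open chromatin in mouse hematopoietic progenitors with an intact Gata2 -77 enhancer and in progenitors lacking it, and had no peak once GATA2 was expressed from a retrovirus. Of 90549 merged ATAC-Seq regions, 26439 are called eligible, since each of the 4 hi-77-/- empty libraries had a peak there, as did 3 or 4 of the hi-77+/+ empty ones. Of these, 319 had no peak in any of the 4 hi-77-/- GATA2 libraries and are the members, 1.21% of the eligible regions. The other 26120 eligible regions had a peak in at least 1 GATA2 library and are called kept regions, and 23127 of them had one in 4 of 4. A peak was counted only among the 49000 most significant peaks of a library on chromosomes 1 to 19 and X, so a region without a peak ranked lower or was not called. The members were thus selected on measured values, the presence of peaks in the empty and GATA2 libraries, which are given as a description. Peaks of the hi-77-/- 9aa-Ins libraries were merged into the regions with the others, but their presence took no part in the selection.

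ATAC-Seq marks chromatin that the Tn5 transposase can reach, and MACS2 peaks were available for 16 libraries, 4 in each of 4 groups. All cells were fetal liver progenitors immortalized with HoxB8 and cultured with β-estradiol, and were infected for 3 d with a GFP retrovirus and isolated by FACS. The hi-77+/+ empty cells carried the wild-type enhancer and an empty vector, and the hi-77-/- empty cells carried the enhancer deletion and the same vector. The remaining cells also carried the deletion and received either GATA2 (hi-77-/- GATA2) or a variant of it with a short insertion between the zinc fingers (hi-77-/- 9aa-Ins). The labels name no separate lines or clones, so genotype and cell line cannot be told apart, and the p-values measure the spread between the 4 libraries of a group. The study's methods name the hi-77-/- libraries biological replicates, and the labels do not say whether they came from separate cultures. GATA2 came from a viral promoter, not from its own locus, and the GATA2 group carried no intact enhancer.

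GATA2 is a zinc finger transcription factor of stem and progenitor cells that binds the WGATAR motif, and it both activates genes and represses others. The -77 enhancer raises Gata2 transcription in myeloid progenitors. PU.1, RUNX1 and the ETS family keep many myeloid enhancers accessible, and EBF1 is the factor that commits lymphoid progenitors to the B cell lineage.

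The libraries differed in ways that touch presence and absence. Between 50195 and 112267 peaks were deposited per library, and the lists of GATA2 replicates 1 and 3 ran only 852 and 4743 peaks past the 49000. The weakest counted peak had a -log10 q of 2.87 to 4.99 in the GATA2 libraries and 4.94 to 5.66 in hi-77-/- empty. That value was 5.88 to 7.15 in hi-77+/+ empty and 6.39 to 9.34 in 9aa-Ins. The GATA2 group was thus read down to the lowest significance, though its replicate 4 overlapped hi-77-/- empty. Counted peaks had a median width of 177 to 245 bp in GATA2 libraries and 244 to 277 bp in hi-77-/- empty. In hi-77+/+ empty it was 212 to 260 bp, and in 9aa-Ins 293 to 378 bp. Peaks were merged at an overlap of 1 bp, which wider peaks reach more easily. Depth is unknown, since the peak lists hold no read totals. On chromosome 8, hi-77+/+ empty held 7.84% of its peaks against 5.45%, 5.42% and 5.41% in the hi-77-/- groups. Of 12 progenitor markers, 9, among them Kit, Cd34, Spi1 and Runx1, had a promoter peak in all 16 libraries. No library had a promoter peak at 5 of 6 hepatocyte markers or at any of 3 endothelial markers, Krt8 had one in 1 hi-77-/- empty and 2 GATA2 libraries, and Hba-a1, an erythroid marker, in 1 hi-77+/+ empty library. Of the mesenchymal markers, Col1a1 had one in 15 libraries and Pdgfrb in 3 hi-77+/+ empty libraries and 1 GATA2 library. The part of other cell types in the results was not tested.

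Sequences of 12 member windows are shown because they carry the motif whose share differed most from kept regions away from promoters, or stand for the members with and without a 9aa-Ins peak. Each is 200 bp of the plus strand of mm10 around the median hi-77-/- empty summit. Capitals mark the EBF half-site pair CCCNNGGG, the PU.1 motif GAGGAA or the WGATAR motif on either strand, and overlapping matches run together. The motifs in capitals were chosen after their shares were seen. The first 4 sequences are from members with a peak in 4 of 4 9aa-Ins libraries, 3 of them with the EBF motif and Sparc with the PU.1 motif.
Med13l, 64.9 kb upstream, chr5:118495117-118495316: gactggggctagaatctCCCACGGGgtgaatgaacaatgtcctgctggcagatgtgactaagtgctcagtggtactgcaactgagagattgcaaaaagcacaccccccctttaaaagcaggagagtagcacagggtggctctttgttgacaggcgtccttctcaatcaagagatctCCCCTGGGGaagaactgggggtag
Etv3, 16.4 kb downstream, chr3:87542356-87542555: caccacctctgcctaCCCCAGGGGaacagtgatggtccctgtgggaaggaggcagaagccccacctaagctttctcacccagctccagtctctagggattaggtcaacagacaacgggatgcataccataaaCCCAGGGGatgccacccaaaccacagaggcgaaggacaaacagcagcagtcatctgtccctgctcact
Sparc, intron, chr11:55405755-55405954: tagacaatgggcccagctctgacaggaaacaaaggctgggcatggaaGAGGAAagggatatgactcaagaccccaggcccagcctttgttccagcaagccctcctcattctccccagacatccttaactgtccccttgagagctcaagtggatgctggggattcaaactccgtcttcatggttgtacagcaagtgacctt
Il18rap, intron, chr1:40524402-40524601: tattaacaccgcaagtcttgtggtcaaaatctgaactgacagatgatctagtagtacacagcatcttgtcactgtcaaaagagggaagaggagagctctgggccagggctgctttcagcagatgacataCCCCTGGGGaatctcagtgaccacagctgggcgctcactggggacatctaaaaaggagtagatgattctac

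The next 3 also had a peak in 4 of 4 9aa-Ins libraries and were added, after the values were seen, as the best-ranked remaining members with an EBF match outside UTRs.
Chd9, intron, chr8:90941729-90941928: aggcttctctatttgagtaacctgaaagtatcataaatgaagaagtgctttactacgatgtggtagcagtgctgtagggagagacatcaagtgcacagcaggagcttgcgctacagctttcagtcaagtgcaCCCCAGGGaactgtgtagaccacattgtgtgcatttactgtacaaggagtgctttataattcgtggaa
Atp6v0a4, 6.88 kb upstream, chr6:38131651-38131850: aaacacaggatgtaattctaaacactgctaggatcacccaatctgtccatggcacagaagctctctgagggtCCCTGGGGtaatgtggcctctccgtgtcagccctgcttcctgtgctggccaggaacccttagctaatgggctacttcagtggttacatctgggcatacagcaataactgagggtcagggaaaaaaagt
Slc45a4, 22.3 kb upstream, chr15:73668168-73668367: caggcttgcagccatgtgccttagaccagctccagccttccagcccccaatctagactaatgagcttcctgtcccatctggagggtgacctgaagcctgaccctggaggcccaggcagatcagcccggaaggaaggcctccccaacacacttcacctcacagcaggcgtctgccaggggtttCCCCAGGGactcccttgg

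The last 5 are from members with a peak in 3, 1 or 0 of 4 9aa-Ins libraries. Cmip had 3, Gp1bb had 1, and 9530068E07Rik, Irf2 and Ppp3ca had 0.
Cmip, intron, chr8:117300146-117300345: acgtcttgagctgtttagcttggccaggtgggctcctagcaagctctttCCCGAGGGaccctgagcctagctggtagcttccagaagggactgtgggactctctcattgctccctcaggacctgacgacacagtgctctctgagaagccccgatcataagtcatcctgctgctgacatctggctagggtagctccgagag
Gp1bb, 1.15 kb upstream, chr16:18623612-18623811: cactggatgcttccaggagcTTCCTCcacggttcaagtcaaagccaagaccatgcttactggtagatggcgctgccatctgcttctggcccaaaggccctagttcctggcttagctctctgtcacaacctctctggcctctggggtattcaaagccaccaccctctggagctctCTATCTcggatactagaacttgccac
9530068E07Rik, 106 kb downstream, chr11:52502750-52502949: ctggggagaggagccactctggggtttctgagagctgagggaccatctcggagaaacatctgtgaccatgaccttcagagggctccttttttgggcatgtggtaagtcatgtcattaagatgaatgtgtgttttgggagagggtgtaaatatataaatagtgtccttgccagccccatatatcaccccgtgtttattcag
Irf2, intron, chr8:46842749-46842948: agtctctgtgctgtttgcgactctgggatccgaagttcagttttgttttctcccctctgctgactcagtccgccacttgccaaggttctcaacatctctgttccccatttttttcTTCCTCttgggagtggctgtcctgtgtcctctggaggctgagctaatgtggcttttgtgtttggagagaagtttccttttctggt
Ppp3ca, intron, chr3:136706163-136706362: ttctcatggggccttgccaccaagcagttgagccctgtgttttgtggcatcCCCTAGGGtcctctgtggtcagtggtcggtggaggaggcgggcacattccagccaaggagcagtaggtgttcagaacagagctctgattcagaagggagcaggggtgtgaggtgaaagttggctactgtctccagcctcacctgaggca

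Most members were open with 9aa-Ins. A peak was present at 88.7%, 84.0%, 81.8% and 82.8% of the 319 members in the 4 9aa-Ins libraries, a mean of 84.3% ± 3.06 (SD, n = 4). The 4 libraries lay close together. At kept regions the same libraries had a peak at 97.9% ± 0.889 (SD, n = 4). The members were lower than the kept regions in 4 of 4 libraries, by 10.3 to 15.4 percentage points. The mean difference was -13.5 points ± 2.25 (SD, n = 4), with p = 0.125 by a two-sided exact sign-flip permutation test, the smallest p that 4 libraries allow, and 0.375 after Benjamini-Hochberg adjustment over 3 such tests. By count, 208 members (65.2%) had a peak in 4 of 4 9aa-Ins libraries, 56 in 3, 27 in 2, 22 in 1 and 6 (1.88%) in 0. Among kept regions 94.2% had a peak in 4 of 4 and 0.0804% in 0.

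**Figure D1:**
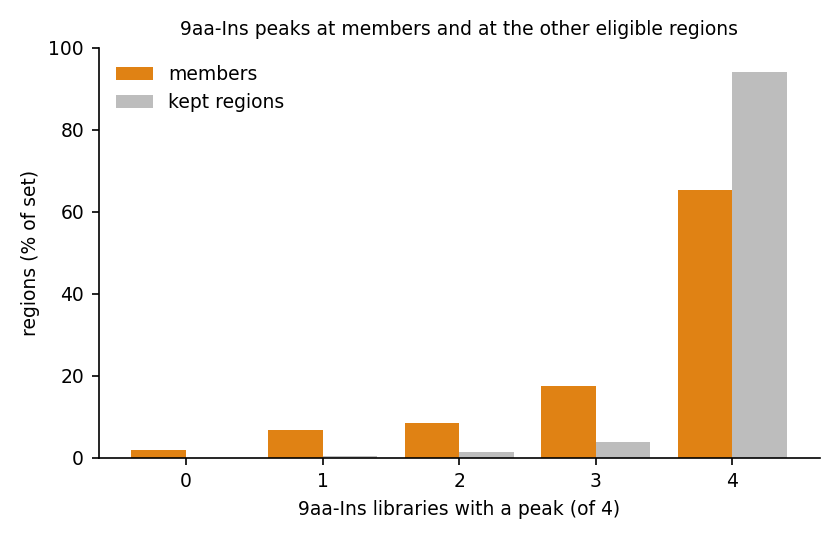
Percent of the 319 members and of the 26120 kept regions (bars) by the number of 9aa-Ins libraries, of 4, with a peak. The bar at 4 of 4 stands at 65.2% for members and 94.2% for kept regions.

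The same rule applied to 9aa-Ins in place of GATA2 found 27 eligible regions without a peak in 4 of 4 libraries, or 0.102%. Leaving out 9aa-Ins replicate 1 raised this to 119, and leaving out any of the other 9aa-Ins or hi-77-/- empty libraries gave 41 to 68. Each of these omissions loosens the rule, which by itself raises the count. Of the 27, 6 were also members. The 6 lay among weak peaks, with a median hi-77-/- empty rank of 39577, against 26035 for the 208 members with 4 of 4.

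Since the GATA2 libraries were used to choose the members, closing was also read in libraries that the choice did not see. For this, regions were chosen again with each GATA2 library left out in turn, which gave 393 to 458 regions. The library left out had a peak at 25.8%, 28.5%, 18.8% and 30.3% of them for replicates 1 to 4, a mean of 25.9% ± 5.05 (SD, n = 4). The 9aa-Ins libraries had a peak at 84.2% ± 3.65 (SD, n = 4) of the same regions, and the ranges did not overlap. The difference was -58.3 points (two-sided exact permutation test, p = 0.0286, the smallest that 4 against 4 allow, adjusted p = 0.0429 over 3 tests). The 4 region sets share most of their regions and are not independent.

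The same was done for the groups in which members were open. For hi-77-/- empty, as for GATA2, all remaining libraries of the group had to meet the rule. For hi-77+/+ empty, 1 of the remaining libraries could lack a peak, so regions with a peak in 2 of 4 entered. Each hi-77-/- empty library, left out, had a peak at 82.2% to 86.2% of 370 to 388 regions, a mean of 84.1% ± 1.83 (SD, n = 4), against 79.4% ± 3.79 in 9aa-Ins (difference 4.72 points, exact permutation p = 0.0857, adjusted p = 0.0857). Each hi-77+/+ empty library, left out, had a peak at 78.2%, 72.1%, 68.8% and 58.0% of 377 to 445 regions, a mean of 69.3% ± 8.49 (SD, n = 4). This was below the 85.0% ± 2.27 of 9aa-Ins at those regions in 4 of 4 libraries (difference -15.7 points, exact permutation p = 0.0286, adjusted p = 0.0429). Replicate 4 was the lowest of the group. Without any 1 of the 9aa-Ins libraries, or without hi-77-/- empty replicate 1 or 2, that p was 0.0571 to 0.0857. Regions with a hi-77+/+ empty peak in 2 of 4 entered only where the library left out had none, which lowers its share. The -15.7 points are thus partly set by the looser choice, and that part was not separated. Without any 1 of the hi-77+/+ empty libraries, a peak in 1 of the 2 libraries still used in the choice was enough. With this still looser choice the difference was -28.8 to -26.5 points, which cannot be set beside the -15.7.

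**Figure D2:**
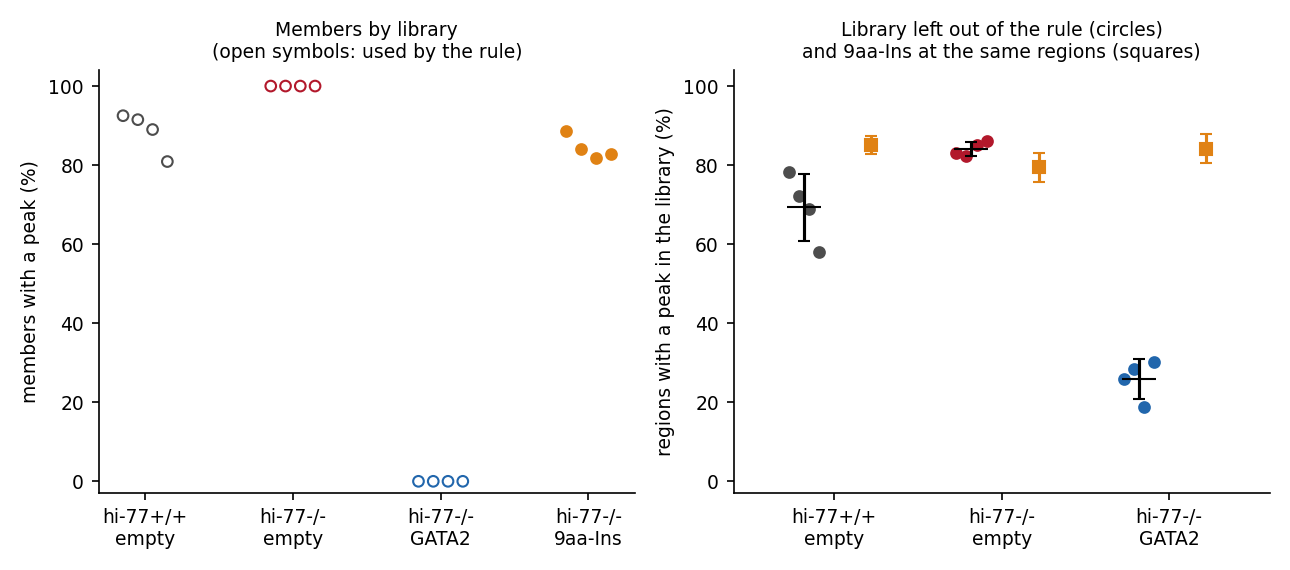
Left, percent of the 319 members with a peak in each library (points, open where the rule used the library). Right, percent of regions with a peak in the library left out of the choice (circles, with mean and SD, n = 4) and in 9aa-Ins at the same regions (squares, mean and SD of 4 values). Circles for GATA2 lie between 18.8% and 30.3%, below every other value.

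Members near the limits of the rule were as follows. A hi-77+/+ empty peak was present in 4 of 4 libraries at 172 members and in 3 of 4 at 147. Just outside, 182 regions met the other criteria with 2 hi-77+/+ empty libraries, 282 with 1 and 1238 with 0, and 451 eligible regions had a peak in 1 GATA2 library. Those 451 had a median hi-77-/- empty rank of 30798 and a peak in a mean of 3.35 9aa-Ins libraries, against 29163 and 3.37 for the members. Below the 49000 peaks, the deposited GATA2 lists held a peak at 1, 147, 21 and 138 members in replicates 1 to 4. At 105 members (32.9%) none of the 4 full GATA2 lists held a peak, and at 1, in Map7d2, all 4 did.

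Members were weak to moderate peaks. Their median rank in hi-77-/- empty, where rank 1 is the most significant peak, was 29163 against 14146 for kept regions, and ranged from 5718 to 47810. They were also shorter, with a median length of 416 bp against 747 bp. Of the eligible regions in 5 equal groups of hi-77-/- empty rank, from strongest to weakest, 0, 7, 33, 73 and 206 were members, or 0%, 0.132%, 0.624%, 1.38% and 3.90%. Every region of the strongest 4 groups had a peak in at least 1 9aa-Ins library, and 0.511% of the weakest had none. In the weakest group the 9aa-Ins libraries had a peak at 77.2% of members and 89.8% of kept regions, and in the fourth at 96.2% and 99.3%. Median ranks of the members by library were 27623 to 30394 in hi-77-/- empty, 32773 to 34326 in hi-77+/+ empty and 31026 to 32322 in 9aa-Ins, over the members with a peak. The hi-77-/- empty libraries ranked the members higher than any library of the other groups, but these libraries were used in the choice.

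**Figure D3:**
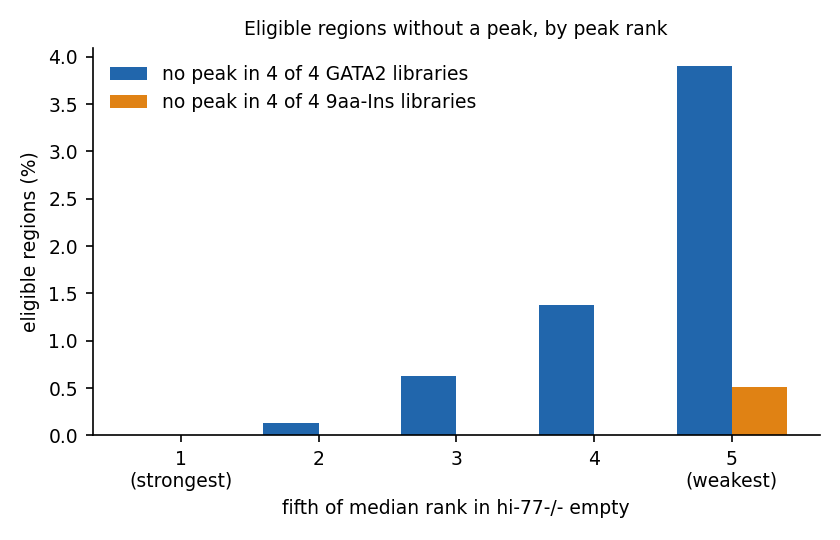
Percent of eligible regions (bars) without a peak in 4 of 4 GATA2 or 4 of 4 9aa-Ins libraries, in 5 equal groups of median hi-77-/- empty rank. The GATA2 bars rise from 0% in the strongest group to 3.90% in the weakest, where the 9aa-Ins bar is at 0.511%.

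Of 17 motifs searched, the EBF motif had the highest frequency in members relative to kept regions, by difference and by ratio. CCCNNGGG, the half-site pair bound by EBF1, was found in the 200 bp window of 98 members (30.7%), of 12.1% of kept regions and of 9.75% of all 90549 regions. Away from promoters, meaning more than 3 kb from a transcription start site (TSS) of a protein-coding gene, it was in 32.2% of 264 members and 10.4% of 13754 kept regions, whose median GC contents were 52.0% and 51.5%. With T before and A after, the fuller EBF1 site, it was in 40 members (12.5%) and 1.39% of kept regions. Read from the motif, 3.02% of 3249 eligible regions with CCCNNGGG were members, 9.93% of 403 with the fuller site, and 0.953% of 23190 without the motif, beside the 1.21% of all eligible regions. Of the 3249 with CCCNNGGG, 5 (0.154%) had no peak in any 9aa-Ins library, beside 0.0949% of those without the motif. The share was 0.102% of all eligible regions and 0 of the 403 with the fuller site. At the share of all eligible regions, 403 regions are too few to set the 0 apart.

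The EBF motif was more frequent in members within groups of like rank. In the weakest group of rank it was in 20.4% of 206 members and 8.26% of kept regions, and in the next group in 45.2% of 73 members and 10.3% of kept regions. It was in 31.4% of the 105 members with no peak in any full GATA2 list, in 29.7% of members with 4 and 32.0% of members with 3 hi-77+/+ empty libraries, in 31.1% of members off chromosome 8, and in 23.6% of promoter members against 14% of promoter kept regions. Matches lay at a median of 35.5 bp from the summit in members and 45.0 bp in kept regions. By the 9aa-Ins split, 34.6% of members with a peak in 4 of 4 libraries and 23.4% of the others had it. Members with the motif had a 9aa-Ins peak at 86.7%, 91.8%, 91.8% and 89.8% in replicates 1 to 4, and members without it at 89.6%, 80.5%, 77.4% and 79.6%. The difference was 8.26 points ± 7.63 (SD, n = 4; exact sign-flip permutation p = 0.250), and replicate 1 went the other way. These tallies by rank, chromosome and flank were added after the motif shares were seen, and a match does not show that a factor bound there. The sign-flip test by this motif was also added then, and its p is not adjusted. The other shares are descriptions without a test.

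The regions closed by GATA2 that lacked a wild-type peak were like the members in this respect. Among the 1238 with 0 of 4 hi-77+/+ empty libraries, 28.3% had the EBF motif and 45.8% the PU.1 motif. Among 1565 regions opened by GATA2, with 0 of 4 hi-77-/- empty and 4 of 4 GATA2 libraries, 4.15% had the EBF motif and 77.3% WGATAR. At Ebf1 itself, 26 regions had it as nearest gene, and a mean of 13.0 ± 0.816, 13.8 ± 1.26, 13.8 ± 0.50 and 15.5 ± 0.577 (SD, n = 4) had a peak in hi-77+/+ empty, hi-77-/- empty, GATA2 and 9aa-Ins. Its promoter had a peak in all 16 libraries. A region 64.8 kb downstream of the TSS (chromosome 11, 44682075 to 44682367) had a peak in 4, 4, 1 and 4 libraries of these groups and so fell just outside the rule. The part of Ebf1 in the members was not tested.

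WGATAR, spelled AGATAA or AGATAG or TGATAA or TGATAG on either strand, was in 46 members (14.4%), against 18.5% of kept regions and 26.3% of all regions. Away from promoters it was in 14.4% of members and 24.8% of kept regions. In a 400 bp window the difference from kept regions changed sign, to 1.38 points, from -4.07 points at 200 bp. The composite of an E-box and WGATAR with a spacer of 6 to 14 bp, which GATA factors share with TAL1, was in 2 members (0.627%). It was in 1.23% of kept regions and 1.98% of all regions. Away from promoters its shares were 0.379% of members and 1.84% of kept regions. The 46 members with WGATAR had a 9aa-Ins peak at 81.5% ± 4.53 (SD, n = 4) and those without at 84.8% ± 3.19, a difference of -3.28 points ± 4.29 (exact sign-flip permutation p = 0.250, adjusted p = 0.375). The members with WGATAR were lower in most but not in every library, with differences of -9.26 to 0.924 points.

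Among motifs of myeloid factors, the PU.1 motif GAGGAA was in 44.8% of members and 29.4% of kept regions, and away from promoters in 43.6% and 35.3%. It was in 49.0% of members with a peak in 4 of 4 9aa-Ins libraries and 36.9% of the others. The ETS cores CCGGAA and AGGAAG, the second of which can overlap the PU.1 motif, were in 54.5% of members and 47.9% of kept regions. The RUNX motif TGTGGT was in 30.4% and 21.2%, but away from promoters in 30.7% and 29.4%. The C/EBP motif TTGCNNAA was in 7.52% and 9.69%. The HOX-PBX motif TGATTNAT was in 9 members (2.82%) and 1.55% of kept regions. Matches to CTCF, which anchors chromatin loops, were in 1.88% of members and 5.96% of kept regions, and the promoter motif SP/KLF, GGGCGG, in 6.27% and 31.5%. Away from promoters the shares were 1.89% and 8.94% for CTCF and 5.30% and 11.0% for SP/KLF. A pair of EBF and PU.1 matches was in 32 members (10.0%) and 3.23% of kept regions, but each motif singly was also more frequent in members. Of eligible regions with the pair 3.66% were members, beside 3.02% of those with the EBF motif.

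**Figure D4:**
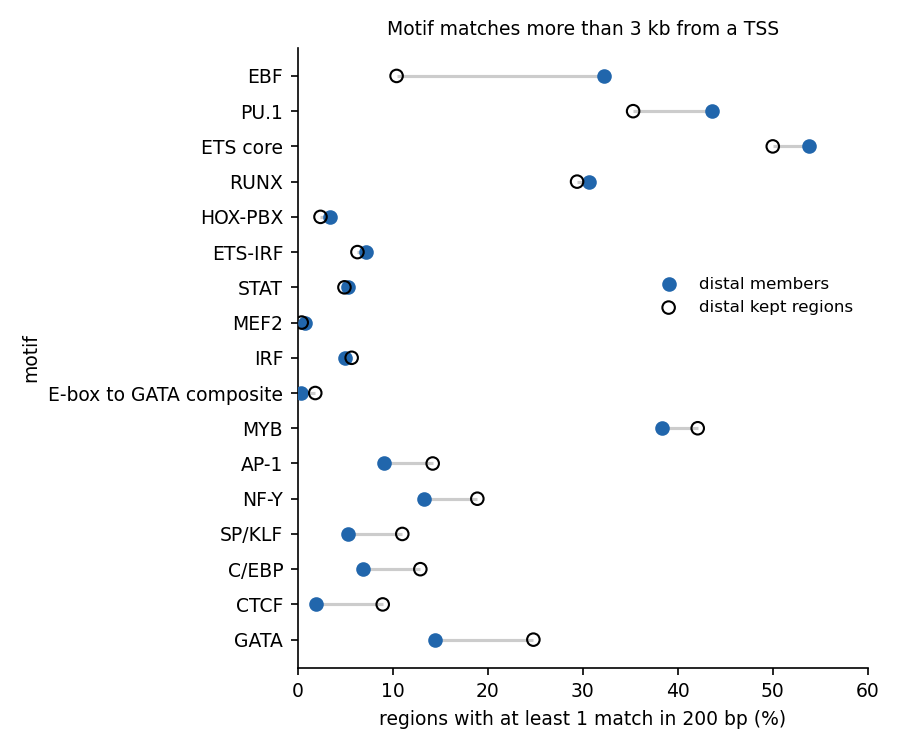
Percent of distal members (filled, 264) and distal kept regions (open, 13754) with at least 1 match of each motif in 200 bp. The widest gap is at EBF, with 32.2% against 10.4%, and GATA lies lower in members, with 14.4% against 24.8%.

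Members were mostly distal. By GENCODE M21, 55 (17.2%) lay within 3 kb of a TSS, against 47.3% of kept regions, 126 (39.5%) were intronic and 128 (40.1%) intergenic, 7 lay in UTRs and 3 in coding exons. The median distance to a TSS was 16.5 kb, against 4.0 kb for kept regions, and 26 members lay within 1 kb. Members with a peak in 4 of 4 9aa-Ins libraries had about the same location, with 17.3% near promoters. Distal members had a 9aa-Ins peak at 84.7% ± 1.92 (SD, n = 4) and promoter members at 82.7% ± 8.72, which differed by less than the spread between libraries (difference 1.93 points ± 6.90, exact sign-flip permutation p = 0.625, adjusted p = 0.625). Another member lay within 100 kb of 16.3% of members, and a member lay within 100 kb of 7.14% of kept regions. A region opened by GATA2 lay within 100 kb of 20.7% of members and 24.8% of kept regions.

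The members were spread over 269 genes taken as nearest within 100 kb, and 253 of these had a single member. Cmip, which encodes a signaling adaptor, had 3 of its 15 eligible regions as members, all intronic. Another 15 genes had 2 members, and the 4 of these with the best-ranked member are named. Etv3, an ETS-family repressor, had 2 of 7, Bmf, which encodes a pro-apoptotic BH3-only protein, 2 of 6, Map7d2, a microtubule-associated protein, 2 of 2, and Wnt11, a secreted ligand, 2 of 7. Of 220 genes nearest to a distal member, 157 had a promoter peak, within 1 kb of a TSS, in 4 of 4 hi-77-/- empty libraries, and 148 of these had one in 4 of 4 GATA2 libraries. No promoter peak in any GATA2 library was found at 4 of the 157 (2.55%), against 55 of 11096 (0.496%) among all protein-coding genes with a promoter peak in 4 of 4 hi-77-/- empty libraries. Of the 4, Map7d2 had one in 4 hi-77+/+ empty and 4 9aa-Ins libraries. Asb2, Gcgr and Sh3pxd2a had one in 0 hi-77+/+ empty and in 2, 1 and 1 9aa-Ins libraries. The same hi-77-/- empty and GATA2 libraries chose the members, and the Map7d2 promoter peak is itself a member. The 2.55% is thus a description that is not separate from the choice.

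The strongest members had a peak in every 9aa-Ins library. The region 64.9 kb upstream of Med13l, which encodes a subunit of the Mediator kinase module, ranked 5766, 5836, 5087 and 5669 in hi-77-/- empty replicates 1 to 4. It ranked 18914, 12630, 11792 and 12499 in 9aa-Ins and 26399, 39761, 26150 and 39227 in hi-77+/+ empty. Every hi-77-/- empty value was ahead of every 9aa-Ins value, and those were ahead of every wild-type value. Named regions were picked by their hi-77-/- empty rank, so a lead of that group is partly set by the choice. The region 16.4 kb downstream of Etv3 ranked 10009, 7975, 8497 and 9353 in hi-77-/- empty, 11914, 10549, 8420 and 9118 in 9aa-Ins, and 23819, 45785 and 35215 in 3 wild-type libraries. Here hi-77-/- empty and 9aa-Ins overlapped. The Bmf region, in its UTR, ranked 8715 to 13434 in hi-77-/- empty, 12787 to 17320 in 9aa-Ins and 19855 to 31302 in hi-77+/+ empty. In Sparc, which encodes a secreted matrix glycoprotein, the intronic region ranked 9425 to 11749, 11187 to 15691 and 31461 to 48187 in the same order.

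The other 4 of the best-ranked members with a peak in 4 of 4 9aa-Ins libraries had Usp6nl, Tns3, Dmrtb1 and Chd9 as nearest genes. Usp6nl is a GTPase-activating protein gene, and its region lay 131 kb downstream of the TSS. Tns3 encodes a focal adhesion protein and Chd9 a chromatin remodeler. The intronic Chd9 region ranked 10216 to 14593 in hi-77-/- empty, 11895 to 16783 in 9aa-Ins and 11974 to 29406 in hi-77+/+ empty, so that all 3 groups overlapped. The Dmrtb1 region ranked 9617 to 15318 in hi-77-/- empty, by which it was picked, and 18887 to 29475 in 9aa-Ins, with no overlap. The Dmrtb1 and Usp6nl regions had no peak in any full GATA2 list.

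Within 1 kb of a TSS, the members of best rank were at Map7d2, Plxnb2, Cd79a, Mymk and Il4i1. Map7d2 had a peak at the TSS that ranked 9692 to 16547 in hi-77-/- empty, 16435 to 22648 in 9aa-Ins and 23180 to 37553 in hi-77+/+ empty. Cd79a encodes the Igα chain of the B cell receptor. Its promoter ranked 14019, 19447, 22054 and 26339 in hi-77-/- empty, 31615, 19014, 26111 and 35063 in 9aa-Ins and 48117, 47682 and 21951 in 3 hi-77+/+ empty libraries. These ranges overlapped. Il4i1, which encodes a secreted amino acid oxidase of immune cells, had a peak at the TSS that ranked 19456 to 26916 in hi-77-/- empty and 21714 to 26131 in 9aa-Ins. Plxnb2, a semaphorin receptor gene, and Mymk, a muscle fusion gene, had no peak in any full GATA2 list.

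By gene list, members made up 0% to 4.65% of the eligible regions nearest to the genes of 11 lists, counting TSSs within 100 kb only. None of the 205 eligible regions nearest to 42 hematopoietic transcription factor genes was a member. The same held for the 88 regions of monocyte and dendritic cell genes, the 41 of granulocyte and mast cell genes and the 33 of chemokines and their receptors. Listed genes did have members outside this count, 235 and 294 kb upstream of Zeb2 and 283 kb upstream of Cxcr4. A member in an intron of Cx3cr1, also a listed gene, was assigned to the nearer TSS of Ttc21a. Cytokine and growth factor receptors had 3 members of 75 eligible regions (4.0%, beside the 1.21% of all eligible regions), namely the interleukin 18 receptor chain gene Il18rap and the TNF receptor genes Tnfrsf1b and Tnfrsf1a. Interferon response genes had 2 of 43 (4.65%), at the transcription factor gene Irf2 and the cytokine signaling inhibitor gene Socs3. Adhesion genes had 2 of 87, at the integrin genes Itgal and Itgav, and signaling inhibitors 2 of 141, at Spry2 and Socs3. B lymphoid genes had 1 of 34, Cd79a, innate sensing 1 of 69, the lipoprotein sensor gene Tlr2, and erythroid and megakaryocyte genes 1 of 24, the platelet glycoprotein gene Gp1bb. With 0 to 3 members each, the lists are too small to set apart from the background.

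Of the members in these lists, the intronic Il18rap region was the strongest. It ranked 15556, 10651, 14174 and 13033 in hi-77-/- empty, 21335, 17249, 27018 and 23827 in 9aa-Ins and 23466, 37966, 34543 and 37626 in hi-77+/+ empty. The hi-77-/- empty values did not overlap the others, but the region was picked by its hi-77-/- empty rank. Tnfrsf1b, intronic, ranked 19531 to 29156 in hi-77-/- empty and 24809 to 34686 in 9aa-Ins. Tlr2, at the TSS, ranked 25926 to 46033 and 28356 to 37032. Gp1bb differed in that it was strongest in wild-type cells, at 13361, 20219, 27583 and 17134, and ranked 38539, 45367, 41050 and 34459 in hi-77-/- empty. It had a peak in 9aa-Ins replicate 1 only. Itgav likewise ranked 13438 to 26019 in hi-77+/+ empty and 38846 to 48670 in hi-77-/- empty, with a peak in 2 9aa-Ins libraries.

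The 6 members without a peak in any 9aa-Ins library were near 9530068E07Rik, Irf2, Ppp3ca, Cask, Glul and Alkbh3. The intergenic region 106 kb downstream of 9530068E07Rik ranked 23104, 28656, 35500 and 37099 in hi-77-/- empty and 22717, 31455, 26994 and 35844 in hi-77+/+ empty. Both groups covered the same range. The intronic Irf2 region ranked 31431 to 43087 in hi-77-/- empty, and the region in Ppp3ca, which encodes a calcineurin catalytic subunit, 32564 to 42883. Glul encodes glutamine synthetase, and its TSS region ranked 39441 to 48256. The region nearest to Alkbh3, in an intron of Hsd17b12, ranked 39760, 46972, 48706 and 48647 in hi-77-/- empty but 15744, 12727, 23404 and 9255 in hi-77+/+ empty. In the hi-77-/- empty libraries the Glul and Alkbh3 regions reached close to the limit of 49000.

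By chromosome, members made up 0.516% (chromosome 19) to 3.45% (chromosome 8) of the eligible regions. Chromosome 8 held 55 of the 319 members (17.2%) and 5.89% of kept regions. All 2021 regions closed by GATA2, whatever the wild-type cells showed, had 6.48% on chromosome 8, and the 1238 without a wild-type peak had 3.07%. Regions shared by the libraries had a median rank of 7208 on chromosome 8 in hi-77+/+ empty and of 11235 to 11685 in the hi-77-/- groups. With the same number of peaks taken from each chromosome in every library, an alternative added after the data were seen, 28 of 301 members were on chromosome 8, or 1.76% of its eligible regions against 1.11% elsewhere. Members on chromosome 8 had a 9aa-Ins peak at 85.0% ± 5.43 and the other 264 members at 84.2% ± 4.10 (SD, n = 4). The part of the wild-type libraries' chromosome 8 ranks in this count was not tested beyond these values.

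**Figure D5:**
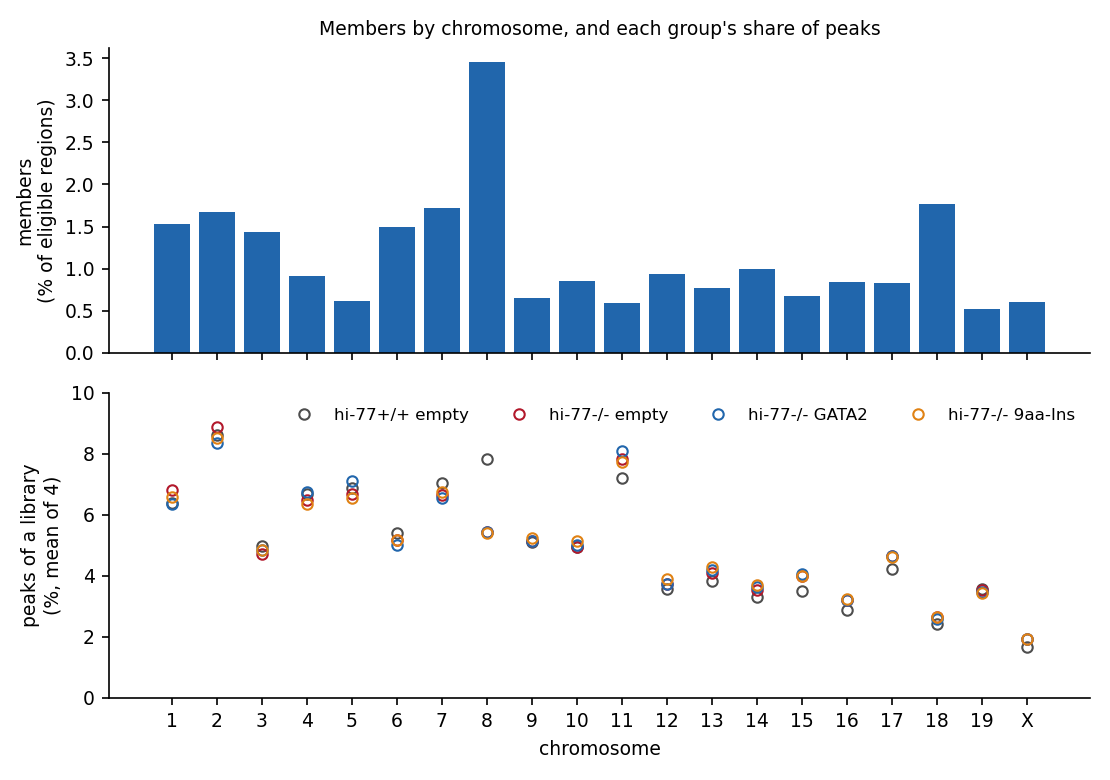
Top, members as percent of eligible regions on each chromosome (bars). Bottom, each chromosome's share of the counted peaks (points, mean of 4 libraries per group). Chromosome 8 stands at 3.45% of eligible regions, and there hi-77+/+ empty has 7.84% of its peaks against 5.41% to 5.45% in the other groups.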

How the data were processed

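The deposited narrowPeak lists of 16 ATAC-Seq libraries were used. Per the labels and the study's methods, the authors trimmed reads (Trim Galore 0.4.1), aligned them to mm10 (Bowtie2 2.2.5), removed duplicates (Picard 2.26.0), shifted tags for Tn5 and called peaks with MACS2 per library, without pooling. The deposited columns hold a score, a fold ratio, the -log10 p-value, the -log10 q-value and the summit offset. No control library or read total was used here. Peaks were ranked by -log10 p, then fold, then position. The 49000 best on chromosomes 1 to 19 and X were merged where they overlapped by 1 bp, and regions were selected by presence. The members, motifs and gene lists were chosen with earlier results of these data known. Named regions were those of best median hi-77-/- empty rank with 4 of 4 (8) or 0 of 4 (6) 9aa-Ins libraries, the 5 genes with most members (ties by best median rank), up to 3 members per gene list and the 5 best within 1 kb of a TSS. Regions were annotated to the nearest protein-coding TSS (GENCODE M21), and windows were read from RefSeq GRCm38, the build of mm10. Of 16 windows chosen, 4 that touched a UTR (Bmf, Tlr2, Cd79a and Pqlc2) are not printed. Shares were compared over libraries by two-sided exact permutation or sign-flip tests, with Benjamini-Hochberg adjustment. The merging, selection and permutation steps were tested on simulated peaks. Python 3.11.15, numpy 2.4.6, pandas 2.3.3 and matplotlib 3.10.9 were used. Alternatives were other peak numbers, widths, overlaps, windows and each library left out.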

Additional observations from a re-analysis of the deposited data

Results flagged for a closer look

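Peaks below the 49000 most significant were not used in the choice, and the GATA2 lists held some at members. In replicates 2, 3 and 4, 147, 21 and 138 of the 319 members had such a peak, at median ranks of 61590, 50914 and 60575, and replicate 1, whose list ended 852 peaks further, had 1. At these members absence means a rank below the limit. In 9aa-Ins, 35 to 50 members per library had a peak only below the limit. None of the 17 groups of 4 library values examined held a library far from the others by Dixon's test, which flags about 5% of groups by chance.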

How the results depend on the processing

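The difference between GATA2 libraries left out of the choice and 9aa-Ins kept its direction and p = 0.0286 in every alternative run, from -68.6 to -56.2 points over other settings and from -61.1 to -47.7 when each library was left out, except with a replicate block over same-numbered pairs (-58.3 points, exact sign-flip p = 0.125, the smallest that 4 pairs allow). With the replicate block the wild-type difference of -15.7 points also had an exact p = 0.125 and the hi-77-/- empty one of 4.72 points p = 0.250. Same-numbered libraries did not deviate together, with correlations of -0.0149 to 0.0368 over eligible regions for GATA2 and wild-type against 9aa-Ins. For hi-77-/- empty, which does not vary at eligible regions, they were -0.0167 to 0.0127 over all merged regions. With 24500 peaks per library there were 160 members, 116 of them with 4 and 2 with 0 9aa-Ins libraries. With all deposited peaks there were 733, 586 and 1, and the 9aa-Ins form of the rule found 4 regions. The wild-type and hi-77-/- empty differences were then -20.6 and -7.07 points (exact permutation p = 0.0571 and 0.171), the second reversed. In this setting the lists were of unequal length, 49852 to 77687 peaks in GATA2 and 70219 to 107594 in 9aa-Ins. Longer lists hold more regions with a peak. With absence from the full GATA2 lists there were 105 members, 61 with 4. The wild-type and hi-77-/- empty differences were then -13.1 and 8.42 points (exact permutation p = 0.0571 and 0.0286). Peaks narrower than 1 kb (48916 per library, fewer than the 49000) gave 90 regions for the 9aa-Ins rule and -0.568 points for distal minus promoter members, which was -3.75 points with 24500 peaks. Peaks that covered 50% of a region gave 332 members with 4 and 3 with 0 9aa-Ins libraries, 6 regions for the 9aa-Ins rule, and -6.85 points for hi-77-/- empty (exact permutation p = 0.200). The WGATAR difference was 1.38 points in a 400 bp window. The ETS difference was 13.3 points with 24500 peaks, against 6.68, and 91.8% of members were distal at a promoter limit of 1 kb, against 82.8%. The EBF difference of 18.7 points was 14.2 to 25.6 in all alternatives, which for this motif were added after the data were seen.

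With each library left out in turn, there were 318 to 458 members, 218 to 301 with a peak in all and 6 to 18 with a peak in none of the 9aa-Ins libraries, and 27 to 119 regions met the 9aa-Ins form of the rule. The count with none was 13, 17, 13 and 13 without hi-77-/- empty replicates 1 to 4, 11 without GATA2 replicate 4, and 18 and 11 without 9aa-Ins replicates 1 and 4. The 9aa-Ins form of the rule found 66, 68, 52 and 61 regions without hi-77-/- empty replicates 1 to 4, and 119, 59, 41 and 51 without 9aa-Ins replicates 1 to 4. Leaving out a library loosens any rule that uses its group, which by itself raises such counts. The hi-77-/- empty difference was 3.35 to 6.42 points, with exact permutation p = 0.0286 without 9aa-Ins replicate 1. The wild-type difference was -28.8 (without wild-type replicate 1) to -9.54 points, and leaving out a wild-type library loosened the choice behind it. The 9aa-Ins share at members minus that at kept regions was -18.2 to -12.3 points, members with WGATAR minus those without -4.68 to -1.28, and distal minus promoter members -0.354 (without 9aa-Ins replicate 3) to 5.91. Peak lists without read counts allow no limit on weak signal at regions without a peak.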
